A study of Mus musculus with 18 samples.

Results

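The chitinase-like and resistin-like genes described here are Chil1, Chil3, Chil4, Chit1, Retnla and Retnlg. They were taken by symbol, 6 of the 53465 genes in the table, and were followed through 18 RNA-seq libraries of microglia and macrophages from the contused spinal cord of adult female C57BL/6J mice. At 48 h after injury, the lesion of 3 mice was injected with PBS, that of 3 mice with recombinant IL-13 (rIL-13) and that of 3 mice with recombinant IL-4 (rIL-4). Cells were sorted 24 h later, microglia as CD45low CD11b+ F4/80+ and macrophages as CD45high CD11b+ F4/80+, so that each of the 9 mice gave 1 library of each cell type. PBS was given to mice 1, 2 and 3, rIL-13 to mice 5, 6 and 7, and rIL-4 to mice 8, 9 and 10. All mice were injured and no gene was modified.

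Chitinase-like proteins have the fold of chitinases, the enzymes that cut chitin, but have lost the catalytic activity. In the mouse, Chil3 (Ym1) and Chil4 (Ym2) are secreted lectins of myeloid cells and epithelia, Chil1 is a secreted glycoprotein of activated macrophages, neutrophils and astrocytes, and Chit1 is an active chitinase of macrophages. Resistin-like proteins are small cysteine-rich secreted factors. Retnla (FIZZ1) is, with Chil3 and Arg1, a classic marker of macrophages that respond to IL-4 or IL-13 through the IL-4 receptor alpha chain and STAT6, whereas Retnlg is known for its expression in bone marrow and neutrophils.

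The members lie in 3 clusters of the mouse genome (build GRCm38, GENCODE positions). Chit1 (ENSMUSG00000026450.14, chr1:134111242-134151540) and Chil1 (ENSMUSG00000064246.10, chr1:134182176-134190181) are 30635 bases apart on the plus strand. Chil3 (ENSMUSG00000040809.10, chr3:106147554-106167564) and Chil4 (ENSMUSG00000063779.6, chr3:106201490-106219507) are 33925 bases apart on the minus strand. Retnla (ENSMUSG00000061100.3 in the table, chr16:48842551-48844461) and Retnlg (ENSMUSG00000022651.5 in the table, chr16:48872621-48874496) are 28159 bases apart on the plus strand.

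Of these pairs, 2 are close copies, which bears on how their reads were counted. The longest protein-coding transcripts of Chil3 and Chil4 were identical in 94.4% of their aligned bases. Of all stretches of 76 bases, the length of a read, 13.73% in Chil3 and 9.495% in Chil4 were also found in another gene, either the partner or the pseudogene Gm6522. Retnla and Retnlg were identical in 84.5% of aligned bases and shared no such stretch. Chit1 and Chil1 were identical in only 66.9% of aligned bases and shared none either.

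The sequences before the starts of the 4 close copies are shown because rIL-4 raised 3 of these genes in both cell types, while the fourth, Retnlg, was not called. They come from RefSeq on GRCm38.p6 and run 5′ to 3′ from 250 to 61 bases before the RefSeq start. Capitals mark matches to TTC and GAA with 4 bases between them, the spacing that STAT6 prefers, to TTCNNNGAA, the spacing of most STAT proteins, or to GAGGAAG, a core to which the myeloid factor PU.1 can bind, searched on both strands.
Chil3, chr3:106167625-106167814, minus strand: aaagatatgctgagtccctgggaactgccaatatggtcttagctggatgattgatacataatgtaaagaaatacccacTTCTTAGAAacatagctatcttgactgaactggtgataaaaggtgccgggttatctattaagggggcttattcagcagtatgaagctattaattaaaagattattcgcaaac
Chil4, chr3:106219540-106219729, minus strand: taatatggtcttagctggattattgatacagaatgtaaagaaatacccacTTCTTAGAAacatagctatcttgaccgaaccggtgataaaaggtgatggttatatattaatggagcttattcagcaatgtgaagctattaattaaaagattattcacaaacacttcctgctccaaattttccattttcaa
Retnla, chr16:48842359-48842548, plus strand: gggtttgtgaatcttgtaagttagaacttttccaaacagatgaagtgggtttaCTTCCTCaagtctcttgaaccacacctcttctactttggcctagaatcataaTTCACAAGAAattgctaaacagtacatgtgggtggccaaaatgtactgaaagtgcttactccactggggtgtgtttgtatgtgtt
Retnlg, chr16:48872358-48872547, plus strand: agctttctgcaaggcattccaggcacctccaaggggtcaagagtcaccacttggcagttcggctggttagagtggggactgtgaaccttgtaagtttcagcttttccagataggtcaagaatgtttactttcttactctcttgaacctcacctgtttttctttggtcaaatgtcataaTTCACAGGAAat

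Chil3 and Chil4 carried the same TTCTTAGAA, which began at -172 and -200 from their RefSeq starts. Retnla carried TTCACAAGAA from -145 and CTTCCTC, the other strand of GAGGAAG, from -197. Retnlg carried TTCACAGGAA from -72, in a stretch similar to that of Retnla. These distances depend on the start used. RefSeq and GENCODE gave the same start for Chil3 (106167564), but not for Chil4 (106219479 and 106219507), Retnla (48842609 and 48842551) or Retnlg (48872608 and 48872621). Differences in distance within a pair are therefore not read as differences between the promoters. In the 250 bases before the start, 90.95% of 221 aligned bases were identical between Chil3 and Chil4, and 78.9% of 175 between Retnla and Retnlg. Chil1 and Chit1 had no match in these 250 bases. Of 32817 RefSeq windows of this length, 5.851% held TTC and GAA with 4 bases between them, 7.015% held TTCNNNGAA and 10.61% held GAGGAAG, so that each match is a description of these letters only.

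Each library held between 35961305 and 45849829 expected counts. Levels are given as counts, as a percentage of all counts of the library, or as normalized counts, for which DESeq2's size factors served as divisors, with the mean ± SD of 3 mice. The microglia label was checked with 9 markers such as Tmem119 and P2ry12. Of these, 8 were called higher in microglia than in macrophages with PBS, where 2603 of 16535 genes were. All 9 were called higher with rIL-4 and with rIL-13, where 2508 and 2773 of these genes were. Against PBS, rIL-4 lowered 9 of the 9 in macrophages and 3 of the 9 in microglia, where 7.20% and 0.887% of genes were called lower. In microglia, all 9 had a log2 fold change under 0 with rIL-4 (median -1.55) and with rIL-13 (median -0.99, 0 called). The macrophage libraries held RNA of these 9 markers too, in amounts that differed by treatment. Their sum there was between 111328 and 167605 normalized counts with PBS, 44524 and 91910 with rIL-13, and 18118 and 33604 with rIL-4. In microglia it was between 258858 and 464818, 116790 and 297847, and 106954 and 181479. The microglia libraries also held RNA of 9 fibroblast and pericyte markers, between 102783 and 149824 normalized counts in sum with PBS, 51768 and 333261 with rIL-13, highest in mouse 6, and 9137 and 63480 with rIL-4. The macrophage libraries held between 11.4 and 372. The 13 neutrophil markers summed to between 5219 and 14865 normalized counts in microglia and between 12255 and 141334 in macrophages, highest in the rIL-13 macrophages of mouse 6. In microglia, Csf3r had the highest mean of the 13, 5272 with PBS, 3650 with rIL-13 and 3335 with rIL-4, against 8217 in PBS macrophages. Lcn2 was next with PBS at 1206, and Ly6g, Mpo and Elane had microglia group means of at most 20.6. Of 5 eosinophil markers, Siglecf, which activated microglia can also express, was at a mean of 370 normalized counts in PBS microglia, 245 with rIL-13 and 281 with rIL-4, and at 494, 254 and 178 in macrophages. Prg2, Epx, Ccr3 and Il5ra had group means between 0 and 18.3, and in the 4 groups given a cytokine Epx was at 0 and Prg2 at most at 8.19. The part of these other cells in the levels of the members was not tested.

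Against PBS, rIL-4 raised Chil3, Chil4 and Retnla in both cell types and rIL-13 raised the same 3 genes in macrophages and 2 of them, Chil3 and Retnla, in microglia. A gene was called at an adjusted p under 0.05 in edgeR's quasi-likelihood test over all genes. Chil1 and Retnlg were called in none of these comparisons, and Chit1, with too few counts, was not tested. With rIL-4, 3 of the 5 members tested in microglia were called higher, where 1.33% of all genes tested were, and 3 of the 5 tested in macrophages, where 6.77% were. With rIL-13, the counts were 2 of 5 in microglia, where 0.283% of genes were called higher, and 3 of 5 in macrophages, where 2.53% were. No member was called lower, where 0.887% (rIL-4) and 0.0835% (rIL-13) of genes were in microglia, and 7.20% and 1.66% in macrophages.

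**Figure D1:**
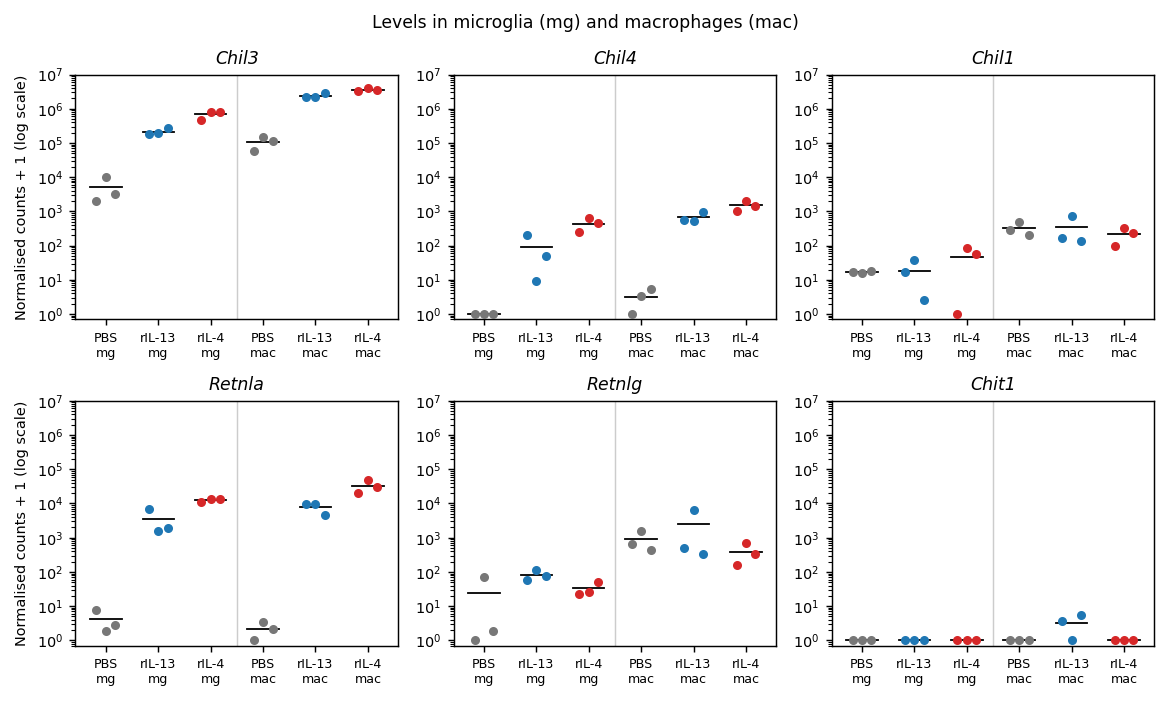
Normalized counts plus 1, on a log axis, of each member in the 18 libraries. Each point is a library, coloured by treatment (grey PBS, blue rIL-13, red rIL-4), horizontal lines are means of 3 mice, and the vertical line parts microglia (mg) from macrophages (mac). Chil3, Chil4 and Retnla stand above the PBS libraries in every library given a cytokine, while Chil1 and Retnlg follow the cell type and Chit1 is at or near 0 throughout.

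Chil3 was by far the most abundant member. In PBS microglia, it took 0.00555%, 0.0295% and 0.00893% of all counts in mice 1, 2 and 3. In rIL-13 microglia, it took 0.507%, 0.561% and 0.829% in mice 5, 6 and 7, and in rIL-4 microglia 1.13%, 2.34% and 2.00% in mice 8, 9 and 10. The 3 groups did not overlap. In macrophages, the shares were 0.141%, 0.341% and 0.271% with PBS, 4.71%, 4.80% and 6.81% with rIL-13, and 8.13%, 10.0% and 7.94% with rIL-4. Again the 3 groups did not overlap, and even the rIL-4 microglia lay below every rIL-13 macrophage library. By counts, Chil3 ranked 1, 1 and 2 among all genes in the rIL-4 macrophages of mice 8, 9 and 10, and 2 in each rIL-13 macrophage library, but between 21 and 51 in PBS macrophages.

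The mean share was thus 8.69% ± 1.14 (SD, n = 3) in rIL-4 macrophages, followed by 5.44% ± 1.19 in rIL-13 macrophages, 1.82% ± 0.622 in microglia given rIL-4, 0.632% ± 0.172 in microglia given rIL-13, 0.251% ± 0.101 in PBS macrophages and 0.0147% ± 0.0130 in PBS microglia. No neighbours in this order overlapped. Normalized counts were 135-fold higher with rIL-4 than with PBS in microglia (log2 fold change 7.12, standard error 0.67, edgeR adjusted p = 0.00127) and 42.2-fold higher with rIL-13 (log2 fold change 5.41, standard error 0.62, edgeR adjusted p = 0.00778). The rIL-13 call in microglia was lost without PBS mouse 3 (edgeR adjusted p = 0.0560), and without PBS mouse 2, the log2 fold changes were 8.08 with rIL-4 and 6.37 with rIL-13. In macrophages, Chil3 was 34.2-fold higher with rIL-4 (log2 fold change 5.14, standard error 0.38, edgeR adjusted p = 4.08e-05) and 22.8-fold higher with rIL-13 (log2 fold change 4.54, standard error 0.37, edgeR adjusted p = 0.00014). Of all genes tested, 9.89% with rIL-4 and 6.75% with rIL-13 in microglia, and 14.6% and 11.1% in macrophages, had every cytokine library above every PBS library. The PBS microglia of mouse 2, which had the highest Chil3 of that group, came from the same animal as the highest PBS macrophage library.

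**Figure D2:**
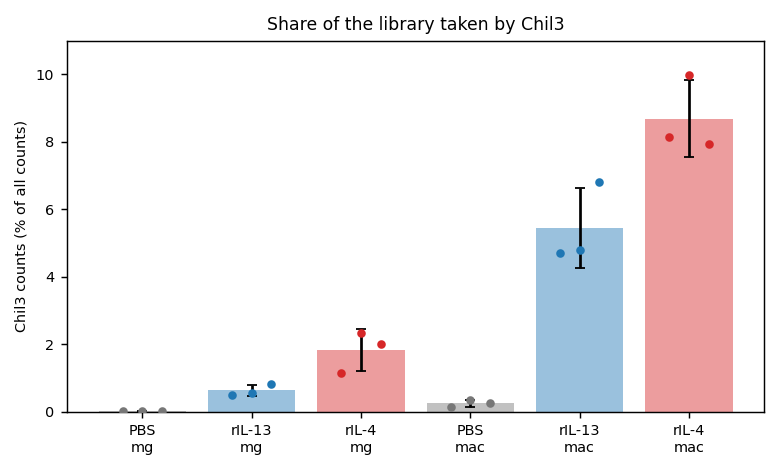
Chil3 counts as a percentage of all counts of the library. Bars are means of 3 mice with the SD, points are libraries, mg is microglia and mac is macrophages. The share runs from 0.0147% in PBS microglia to 8.69% in rIL-4 macrophages, and groups next to each other in height do not overlap.

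Chil4, the close copy of Chil3, was counted far less often. It had 0 counts in each of the 3 PBS microglia libraries and 0, 2 and 4 in PBS macrophages. With rIL-13, microglia had 222, 10 and 63 counts and macrophages 444, 478 and 874, in mice 5, 6 and 7. With rIL-4, microglia had 250, 821 and 421 counts and macrophages 1113, 2091 and 1481, in mice 8, 9 and 10. Every library with a cytokine was above every PBS library, but rIL-13 microglia varied widely between mice. Per kilobase of transcript, rIL-4 macrophages had a mean level of 973 normalized counts of Chil4 and 2358194 of Chil3.

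In microglia, rIL-4 raised Chil4 at least 160-fold over PBS, against a floor of 3 counts in each PBS library (edgeR adjusted p = 0.0239). This call was lost without any of PBS mice 1, 2 and 3 or rIL-4 mice 9 and 10 (edgeR adjusted p between 0.0555 and 0.0942). With rIL-13 it was at least 31.7-fold higher, or at least 10.4-fold without mouse 5, but did not pass the test (edgeR adjusted p = 0.129). Without the rIL-13 microglia of mouse 6, the adjusted p from edgeR was 0.0467, it was 0.00774 with all 18 libraries in 1 model, and DESeq2 gave 2.84e-06. In macrophages, where PBS libraries held 6 counts in all, it was 669-fold higher with rIL-4 (counting interval 304 to 1804, edgeR adjusted p = 1.19e-05) and 307-fold higher with rIL-13 (counting interval 139.5 to 828, edgeR adjusted p = 5.19e-05). Without PBS mouse 3, which held 4 of the 6 counts, these ratios were 1273 and 584, and without PBS mouse 1 they were 446 and 204.5. Floors and such 95% Poisson intervals cover the counting of reads only. They do not cover differences between mice or uneven amplification, since the reads had no molecular identifiers.

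Because RSEM divides reads that match both genes, the counts of Chil4 were set beside those of Chil3 and of Gm6522 in the same library. Chil4 made up 0.0405% ± 0.00898 (SD, n = 3) of the counts of Chil3 and Chil4 in rIL-4 macrophages, 0.0279% ± 0.00393 in rIL-13 macrophages and 0.0629% ± 0.0139 in rIL-4 microglia. The shares of rIL-13 microglia were 0.112%, 0.00444% and 0.0181% in mice 5, 6 and 7. In PBS macrophages it was 0%, 0.00161% and 0.00384%, and the exact binomial intervals of the last 2 ran from 0.000195% to 0.00581% and from 0.00105% to 0.00984%, below those of all libraries given a cytokine other than the rIL-13 microglia of mouse 6. The 0 counts in PBS microglia gave exact upper limits of 0.179%, 0.0317% and 0.106% in mice 1, 2 and 3. The limit of mouse 2 lay below the intervals of the 3 rIL-4 microglia libraries, whose lowest bound was 0.0478%, and those of mice 1 and 3 did not. These binomial intervals, too, cover the counting of reads only and are too narrow for amplified RNA.

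Gm6522 had between 6 and 139 counts in the 12 libraries with a cytokine, or 0.0025% to 0.00518% of those of Chil3, and 1, 1 and 5 counts in PBS macrophages. The 10 counts of Chil4 in the rIL-13 microglia of mouse 6 stood beside 6 of Gm6522, and the 2 and 4 counts in PBS macrophages beside 1 and 5. In the other 11 libraries with a cytokine, Chil4 exceeded Gm6522 by more. How reads shared between the 3 genes were divided was not tested.

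Retnla was at or near 0 with PBS and abundant with either cytokine. PBS microglia had 7, 1 and 2 counts and PBS macrophages 0, 2 and 1, in mice 1, 2 and 3. With rIL-13, microglia had 7621, 1823 and 2537 counts and macrophages 7539, 8331 and 4325, in mice 5, 6 and 7. With rIL-4, microglia had 11279, 17683 and 12551 counts and macrophages 21721, 48023 and 32418, in mice 8, 9 and 10. In mouse 5, unlike in any other mouse given a cytokine, both cell types had about the same number of counts, 7621 and 7539.

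On normalized counts, Retnla was 12703 ± 1336 (SD, n = 3) in rIL-4 microglia, 4006-fold the PBS level (counting interval 2258 to 8660.3, edgeR adjusted p = 0.000422), and 3517 ± 3038 in rIL-13 microglia, 1109-fold the PBS level (counting interval 625 to 2398, edgeR adjusted p = 0.00173). In macrophages, it was 32707 ± 13704 with rIL-4, 28492-fold the PBS level (counting interval 9893 to 140194, edgeR adjusted p = 2.18e-06), and 7942 ± 2813 with rIL-13, 6918-fold the PBS level (counting interval 2402 to 34042, edgeR adjusted p = 8.03e-06). The wide intervals come from the 10 and 3 counts of the PBS groups. Without PBS mouse 1, which held 7 of the 10, the ratios in microglia were 9409 and 2605, and without rIL-13 mouse 5 the latter was 557. Without PBS mouse 2, the ratios in macrophages were 59915 and 14549. Levels ran from rIL-4 macrophages over rIL-4 microglia, rIL-13 macrophages and rIL-13 microglia down to both PBS groups. The ranges of rIL-13 macrophages and rIL-13 microglia overlapped, and so did those of the PBS groups.

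Chil1 did not follow the cytokines. PBS microglia had 17, 17 and 19 counts, rIL-13 microglia 17, 42 and 2, and rIL-4 microglia 0, 110 and 53. PBS macrophages had 260, 404 and 188 counts, rIL-13 macrophages 126, 637 and 128, and rIL-4 macrophages 105, 339 and 247. On normalized counts, every macrophage library was above every microglia library with each treatment. With rIL-4 this margin was narrow, 96.9 in the macrophages of mouse 8 against 84.2 in the microglia of mouse 9. Their raw counts, 105 and 110, were in the other order. The libraries of both cell types did not overlap, in either direction, for 50.6% (PBS), 40.6% (rIL-13) and 36.8% (rIL-4) of all genes tested. The treatments overlapped within each cell type. The log2 fold change against PBS was 1.56 with rIL-4 (95% interval -2.32 to 5.44, edgeR adjusted p = 0.776) and 0.11 with rIL-13 (-3.69 to 3.91, edgeR adjusted p = 0.9999) in microglia. In macrophages it was -0.50 with rIL-4 (-1.92 to 0.92, edgeR adjusted p = 0.673) and 0.09 with rIL-13 (-1.32 to 1.505, edgeR adjusted p = 0.962). Without the rIL-13 macrophages of mouse 6, the last value was -1.07.

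Retnlg was a gene of the macrophage libraries as well, and its level depended on the mouse. PBS macrophages had 571, 1378 and 404 counts in mice 1, 2 and 3, rIL-13 macrophages 382, 5748 and 305 in mice 5, 6 and 7, and rIL-4 macrophages 172, 709 and 344 in mice 8, 9 and 10. Microglia had 0, 79 and 1 counts with PBS, 64, 130 and 98 with rIL-13 and 22, 32 and 47 with rIL-4. A single library, that of mouse 6, held most of the counts of rIL-13 macrophages. The log2 fold change against PBS in macrophages was -1.15 with rIL-4 (95% interval -3.39 to 1.10, edgeR adjusted p = 0.515) and 1.45 with rIL-13 (-0.79 to 3.69, edgeR adjusted p = 0.517), and the latter was -1.10 without mouse 6. In microglia, it was 0.52 with rIL-4 (-3.23 to 4.26, edgeR adjusted p = 0.949) and 1.83 with rIL-13 (-2.02 to 5.68, edgeR adjusted p = 0.9999). Without PBS mouse 2, which held 79 of the 80 counts of its group, these values were 5.83 and 7.14, and neither passed (edgeR adjusted p = 0.216 and 0.433).

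Retnlg and Chil1 moved with neutrophil markers across the macrophage libraries. Among the mice of each treatment, mice 2, 6 and 9 had the highest Retnlg, the highest Chil1 and the highest sum of the 13 neutrophil markers. That sum was 74442, 141334 and 41410 normalized counts there and between 12255 and 48198 in the other 6. These mice also had the highest macrophage Ly6c2 of their treatment (9906, 8866 and 7674) and the highest Ccr2 (9633, 21356 and 14674), both markers of monocyte-derived cells. The sum of the 8 such markers described below was instead highest in mice 1, 7 and 10. On log2 values of the 9 macrophage libraries, the correlation with the sum was 0.946 (Pearson, exact permutation p = 0.000141, adjusted p = 0.000281) and 0.883 (Spearman, exact permutation p = 0.00308, adjusted p = 0.00615) for Retnlg. For Chil1 it was 0.918 (Pearson, exact permutation p = 0.000686, adjusted p = 0.000686) and 0.80 (Spearman, exact permutation p = 0.0138, adjusted p = 0.0138), with 2 genes tested. Without mice 6 and 8, the 2 farthest from the median of the sum, Pearson's r was 0.858 and 0.749. The 3 treatments were pooled, since 3 mice are too few for a correlation within each, so r and p also hold any shift that a treatment brought. In macrophages, 3 of the 13 markers were called lower with rIL-4 (median log2 fold change -1.23), where 7.20% of genes were. The sum rests much on S100a8 and S100a9, which reached 54967 and 34552 normalized counts in rIL-13 macrophages. In bulk RNA, more cells of a type and more RNA per cell cannot be told apart. The part of neutrophils or monocytes in these levels was not tested.

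**Figure D3:**
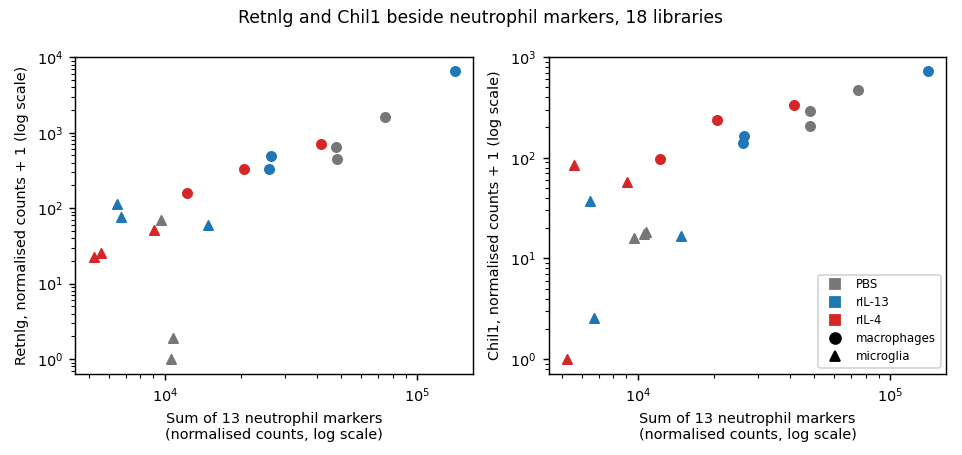
Normalized counts plus 1 of Retnlg (left) and Chil1 (right) against the sum of 13 neutrophil markers, all on log axes, in the 18 libraries. Circles are macrophages and triangles microglia, in grey (PBS), blue (rIL-13) and red (rIL-4). In macrophages both genes climb with the sum (Pearson's r 0.946 and 0.918), while the microglia libraries lie at the low end.

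Chit1 was found in 2 of the 18 libraries, the rIL-13 macrophages of mice 5 and 7, with 2 and 4 counts, and was at 0 in the other 16. A floor of 3 counts per library limits what this depth can show.

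Of 8 relatives of the members, Chil6 had no count in any library and Retnlb and Retn had at most 8. Chia1, an active chitinase, was counted in 3 microglia libraries (38, 37 and 109 counts) and in no macrophage library. Chid1, a chitinase domain gene found in most cells, had 1812 ± 87.2 normalized counts (SD, n = 3) in PBS macrophages, 3496 ± 265 with rIL-13 and 3774 ± 472 with rIL-4. It was called higher with rIL-4 (log2 fold change 1.11, standard error 0.13, edgeR adjusted p = 0.000599) and with rIL-13 (log2 fold change 0.98, standard error 0.13, edgeR adjusted p = 0.00345) in macrophages. Chid1 was the 1 called of 2 relatives tested there, where 6.77% of genes were called higher with rIL-4 and 2.53% with rIL-13. In microglia, 4 relatives were tested and 0 were called against PBS. As 2.22% of genes were called there with rIL-4 and 0.366% with rIL-13, this 0 says little.

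Between the cytokines, no member passed the test in either cell type, though Chil3, Chil4 and Retnla had higher means with rIL-4 in both. In microglia, 0 of 5 members were called by edgeR or by DESeq2, where edgeR called 0.0385% of genes and DESeq2 557 of 15566. An unadjusted p under 0.05 was found for 2, and its share over all genes was not counted. The log2 fold change of rIL-4 against rIL-13 there was 1.70 for Chil3 (95% interval 0.52 to 2.89, edgeR adjusted p = 0.330), 1.87 for Retnla (0.64 to 3.09, edgeR adjusted p = 0.310) and 2.34 for Chil4 (-0.24 to 4.93, edgeR adjusted p = 0.478). For these 3 genes, every rIL-4 library was above every rIL-13 library, as was so for 5.08% of all genes tested. For Retnla, the difference was 2.88 without the rIL-13 microglia of mouse 5.

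In macrophages, edgeR called 0 of 5 members, where it called 0.250% of genes. DESeq2 called 2, Retnla and Chil4, where it called 420 of 13606 genes. An unadjusted p under 0.05 was found for 3 members, a count without its share over all genes. For 6.09% of all genes tested, and for Chil3, Chil4 and Retnla among them, every rIL-4 library was above every rIL-13 library. Retnla was 4.12-fold higher with rIL-4 (log2 fold change 2.06, 95% interval 1.27 to 2.85, edgeR adjusted p = 0.0514). With no filter on low counts, the adjusted p from edgeR was 0.000226, and with DESeq2 it was 5.15e-06. Without each mouse in turn, edgeR gave an adjusted p between 0.0586 and 0.174. Chil4 was 2.18-fold higher (log2 fold change 1.15, 95% interval 0.40 to 1.89, edgeR adjusted p = 0.209, DESeq2 adjusted p = 0.0286). Chil3 was 1.497-fold higher (log2 fold change 0.60, 95% interval -0.11 to 1.31, edgeR adjusted p = 0.535). The value of Retnlg was -2.60 (95% interval -4.93 to -0.26, edgeR adjusted p = 0.397) and was -0.048 without mouse 6.

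**Figure D4:**
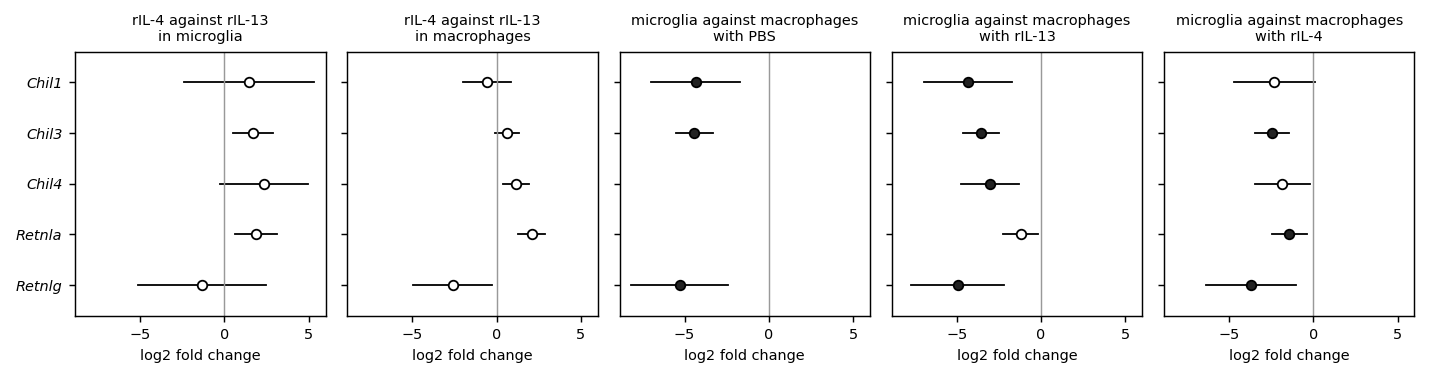
Log2 fold changes of 5 members with 95% intervals from edgeR, for rIL-4 against rIL-13 in each cell type and for microglia against macrophages with each treatment. Filled points passed an adjusted p of 0.05 and open points did not, and Chil4 and Retnla are left out with PBS, where their counts were near 0. No member was called between the cytokines, and the called differences between cell types all lie on the macrophage side.

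Members were mostly lower in microglia than in macrophages of the same cords. With PBS, 3 of 5 members were called lower in microglia, where 9.90% of genes were. These were Chil3 (20.8-fold lower, log2 fold change -4.42, edgeR adjusted p = 1.07e-05), Chil1 (19.99-fold lower, log2 fold change -4.34, edgeR adjusted p = 0.0163) and Retnlg (38.8-fold lower, log2 fold change -5.30, edgeR adjusted p = 0.00823). Without mouse 2, the log2 fold changes were -5.07 for Chil3 and -9.84 for Retnlg. Without any one of the PBS mice, Chil1 was not called (edgeR adjusted p between 0.0759 and 0.136). With rIL-13, 4 of 5 were called lower, where 12.7% of genes were. Chil3 was 11.3-fold lower (log2 fold change -3.54, edgeR adjusted p = 5.16e-05), Chil4 7.87-fold (log2 fold change -3.01, edgeR adjusted p = 0.0115), Chil1 19.2-fold (log2 fold change -4.32, edgeR adjusted p = 0.0149) and Retnlg 29.7-fold (log2 fold change -4.95, edgeR adjusted p = 0.00905). The value for Chil4 was -4.72 without mouse 5, and its call was lost without mouse 7 (edgeR adjusted p = 0.114) and with only these 6 libraries (0.0580), that for Retnlg without mouse 6 (log2 fold change -2.64, edgeR adjusted p = 0.186) and that for Chil1 without any one mouse (edgeR adjusted p between 0.0503 and 0.0574).

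With either cytokine, Retnla had the smallest fold between the cell types of the 5 members. With rIL-13, it was 2.26-fold lower in microglia (log2 fold change -1.22, 95% interval -2.25 to -0.18, edgeR adjusted p = 0.0719). It passed with the mouse as a block (log2 fold change -1.47, edgeR adjusted p = 0.0148) and without mouse 5 (log2 fold change -2.05, edgeR adjusted p = 0.00354). With rIL-4, 3 of 5 members were called lower in microglia, where 12.5% of genes were. Retnla was 2.57-fold lower (log2 fold change -1.44, edgeR adjusted p = 0.0383), Chil3 5.28-fold lower (log2 fold change -2.47, edgeR adjusted p = 0.000954) and Retnlg 12.3-fold lower (log2 fold change -3.69, edgeR adjusted p = 0.0391). Without any one of the rIL-4 mice, Retnla (edgeR adjusted p between 0.0868 and 0.212) and Retnlg (0.087 to 0.219, with a value of -2.82 without mouse 9) were no longer called. Chil4 was 3.39-fold lower (log2 fold change -1.83, edgeR adjusted p = 0.0886, or 0.0153 with only these 6 libraries), and Chil1 passed only with the mouse as a block (log2 fold change -2.31, edgeR adjusted p = 0.140, and -3.15 and 0.0432 with the block).

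Within a mouse, the microglia level of Chil3 was 3.41%, 6.93% and 2.79% of the macrophage level in PBS mice 1, 2 and 3. It was 8.35%, 8.90% and 9.23% in rIL-13 mice 5, 6 and 7, and 13.9%, 19.1% and 23.4% in rIL-4 mice 8, 9 and 10. The treatments did not overlap, and the share of all genes for which this was so was not counted. The change of Chil3 with rIL-4 was larger in microglia than in macrophages by 1.95 on the log2 scale (95% interval 0.58 to 3.32, unadjusted p = 0.0081 in edgeR's test, adjusted p = 0.193). With the mouse as a block, the value was 2.15 and passed (edgeR adjusted p = 0.00699), as it did without mouse 2 (2.60, edgeR adjusted p = 0.0320) and with DESeq2 (1.98, adjusted p = 0.0353). Of the 5 members, edgeR called 0 in this test, where it called 0.992% of genes. DESeq2 called 1, where it called 689 of 16535. An unadjusted p under 0.05 was found for 1, again without its share over all genes. For rIL-13, 0 of the 5 were called by edgeR or by DESeq2 or had an unadjusted p under 0.05. There, edgeR called 0.0242% of genes and DESeq2 154 of 16535, and the value for Chil3 was 0.88 (95% interval -0.48 to 2.24).

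For Retnla, the microglia level was 72.3%, 16.5% and 42.1% of that of the macrophages in rIL-13 mice and 55.7%, 28.6% and 43.5% in rIL-4 mice. It was above the same percentage of Chil3 in 6 of 6 mice, by 1.61 ± 0.98 on the log2 scale (SD, n = 6). The exact sign-flip permutation test of this difference, chosen after the values were seen, gave a two-sided p of 0.0312, the smallest that 6 mice allow. For Chil4, the percentage was 35.8%, 1.58% and 5.17% in rIL-13 mice and 24.1%, 30.5% and 32.0% in rIL-4 mice, above that of Chil3 in 4 of 6 mice (0.11 ± 1.58, exact permutation p = 0.844).

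Markers of monocyte-derived cells were present in the microglia libraries too. All 8 markers had counts in every microglia group, and their sum was 21.7% to 39.5% of that of the same mouse's macrophages with PBS, 12.6% to 18.1% with rIL-13 and 15.2% to 23.1% with rIL-4. Fn1, which fibroblasts also express, had a mean of 27816 normalized counts in PBS microglia, 29664 with rIL-13 and 38501 with rIL-4, and was the highest of the 8. It is also on the list of alternative activation genes below, with a mean of 53669 in PBS macrophages and 210691 with rIL-4, so that it weighs heavily on the sum. Ly6c2, a marker of inflammatory monocytes, was at 2.58% to 5.20%, 3.34% to 7.92% and 6.93% to 13.5%, and Ccr2 at 5.70% to 11.9%, 4.49% to 15.7% and 6.23% to 28.5%. Other markers were at higher percentages in mice given a cytokine, such as F13a1 at 13.8% to 44.3% and Vcan at 18.2% to 89.3%. The percentage of Chil3 lay below that of the marker sum in 7 of 9 mice, those other than mice 9 and 10. Beside Ly6c2 alone, it lay above in every mouse other than mouse 3 (2.79% against 3.26%). Beside Ccr2 alone, it lay below in every mouse other than mice 6 and 9. That of Retnla lay above the sum in the mice given a cytokine other than mouse 6, where it was 16.5% and the sum 18.1%. The part of macrophage RNA in the microglia levels was not tested.

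**Figure D5:**
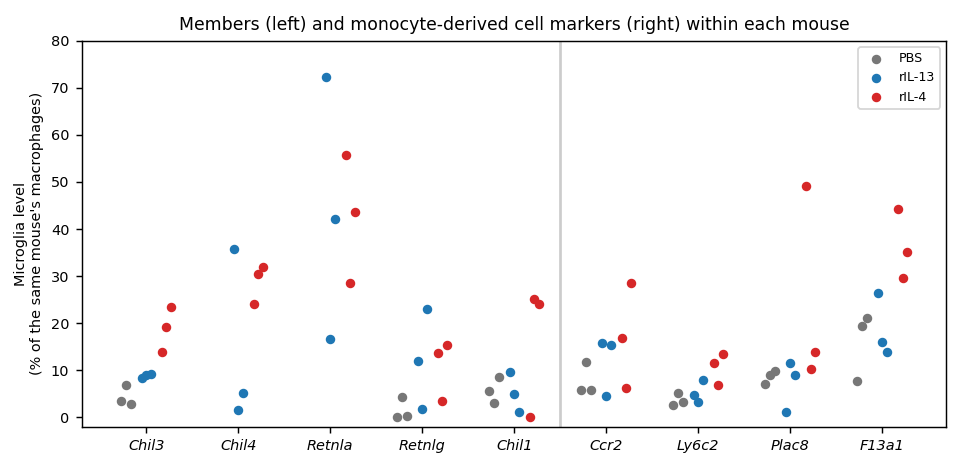
Level in microglia as a percentage of the level in macrophages of the same mouse, on normalized counts, for 5 members and 4 markers of monocyte-derived cells. Each point is a mouse, coloured by treatment (grey PBS, blue rIL-13, red rIL-4), and Chil4 and Retnla are left out with PBS. Retnla lies between 16.5% and 72.3%, and Chil3 climbs from 2.79% to 6.93% with PBS to 13.9% to 23.4% with rIL-4.

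Other genes of alternative activation gave a frame for the members. Of 24 such genes, 23 were tested in microglia and 24 in macrophages. With rIL-4, 13 rose in microglia, where 1.33% of all genes did, and 0 fell, and the median log2 fold change was 2.71, against -0.06 over all genes tested. In macrophages, 21 rose and 1 fell with rIL-4, where 6.77% of all genes rose and 7.20% fell (median 2.57, against 0.02 over all genes). With rIL-13, 4 rose in microglia, where 0.283% of all genes did (median 1.92, against 0.00), and 16 in macrophages, where 2.53% did (median 2.14, against 0.00). None fell with rIL-13, where 0.0835% and 1.66% of all genes fell. Setting genes that had no count with PBS at their lower bound left the medians in microglia at 2.71 and 1.92. Between the cytokines, edgeR called 0 of the 23 tested in microglia and 0 of the 24 in macrophages, where it called 0.0385% and 0.250% of all genes, so that 0 says little about the list.

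Among those called, Ccl24, a chemokine that attracts eosinophils, rose from 156 ± 47.0 normalized counts (SD, n = 3) in PBS microglia to 51411 ± 21962 with rIL-4 and 13581 ± 3306 with rIL-13 (log2 fold changes 8.40 and 6.44, edgeR adjusted p = 5.74e-05 and 0.000391). Pdcd1lg2, which encodes PD-L2, had no count in PBS microglia and exceeded the floor of 3 counts by at least 351-fold (rIL-4) and 60.4-fold (rIL-13) there (edgeR adjusted p = 0.00208 and 0.0114). Arg1, which breaks down arginine, had a log2 fold change of 3.91 in rIL-13 microglia (standard error 0.47, edgeR adjusted p = 0.00894). In macrophages, Mgl2, a lectin of alternatively activated cells, rose by 6.74 with rIL-4 and 5.80 with rIL-13 on the log2 scale (standard errors 0.39 and 0.38, edgeR adjusted p = 9.69e-06 and 3.68e-05).

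Among 9 receptors and transducers of both cytokines, edgeR called 0 against PBS in microglia, where it called 2.22% of genes with rIL-4 and 0.366% with rIL-13 (median log2 fold change 0.32 and 0.09). These shares leave little room for a call among 9 genes. Il13ra1, a chain of the receptor that IL-13 uses, had 5122 ± 499 normalized counts (SD, n = 3) in PBS microglia and 2269 ± 917 in rIL-4 microglia. In macrophages, 8 were tested and only Il13ra1 was called, lower with rIL-4, where 7.20% of genes were called lower (log2 fold change -0.64, standard error 0.17, edgeR adjusted p = 0.0329). Stat6, the transducer of both cytokines, was lower in microglia than in macrophages with PBS (log2 fold change -0.91, edgeR adjusted p = 0.000343) and with rIL-4 (log2 fold change -0.75, edgeR adjusted p = 0.00169). Il13ra2, the decoy receptor, to which Chil1 can also bind, had no count in macrophages or in PBS microglia and a mean of 82.6 ± 53.1 normalized counts (SD, n = 3) in rIL-13 microglia and 48.7 ± 79.8 in rIL-4 microglia.

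Of 4 genes whose products bind chitinase-like proteins, only Lgals3, which encodes galectin-3, was called against PBS in microglia. This was with rIL-4, where 1.33% of genes were called higher. Lgals3 was higher in macrophages, at means of 124245 normalized counts with PBS, 144067 with rIL-13 and 156196 with rIL-4. It was called lower in microglia with each treatment (log2 fold changes -3.08, -2.16 and -1.37), where 9.90%, 12.7% and 12.5% of genes were. In microglia, it was 14973 ± 4955 normalized counts (SD, n = 3) with PBS, 33327 ± 4397 with rIL-13 and 63327 ± 9220 with rIL-4 (log2 fold change with rIL-4 2.12, standard error 0.24, edgeR adjusted p = 0.00289). Its change with rIL-4 was larger in microglia than in macrophages, with a log2 difference of 1.71 (standard error 0.30, edgeR adjusted p = 0.0124). In that test, 0.992% of genes were called. Cd44 was lower in microglia than in macrophages with each treatment (log2 fold changes between -2.68 and -1.90).

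The genes whose pattern over the 18 libraries was closest to each member were found by the root mean square difference of log2 profiles, each less its mean. For Chil3, whose own spread was 3.32, they were Ear2 (0.65), Atp6v0d2 (1.02) and Pdcd1lg2 (1.06). For Chil4, with a spread of 4.11, they were Ccl24 (1.13), Rnase2a (1.41) and Mgl2 (1.45). For Retnla, with a spread of 5.72, they were Msx3 (1.20), Rnase2a (2.18) and Ccl24 (2.23). Msx3, a homeobox gene, had at most a mean of 0.392 normalized counts in the PBS groups, 1023 and 2948 in rIL-13 and rIL-4 microglia and 3089 and 5233 in rIL-13 and rIL-4 macrophages. For Chil1, with a spread of 2.52, they were Trem3 (0.98), S100a8 (1.11) and S100a9 (1.13), and for Retnlg, with a spread of 3.07, Stfa2l1 (1.14), Slpi (1.45) and Nrg1 (1.47). S100a8 and S100a9 are on the list of neutrophil markers. Ear2 and Rnase2a belong to the family of eosinophil-associated ribonucleases, whose near-identical copies can share reads.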

How the data were processed

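RNA of sorted microglia and macrophages was amplified as full-length cDNA (SMART-seq2, without molecular identifiers or strand) and sequenced in 18 libraries. The authors mapped reads to GRCm38 with STAR 2.5.3a and deposited RSEM 1.3.0 expected counts per gene, as unnormalized whole numbers. Reads that match several genes are divided among them by RSEM. Of 53465 gene identifiers, 53274 matched the GENCODE annotation without the version. Totals were between 35961305 and 45849829 per library.

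Groups follow the labels. Each cell type was fitted with edgeR 4.0.16 (R 4.3.3) on its 9 libraries (TMM, filterByExpr, quasi-likelihood test, two-sided, Benjamini-Hochberg over 15566 genes in microglia and 13606 in macrophages). Cell types and differences of responses were fitted on all 18 libraries (16535 genes). The labels pair both libraries of a mouse, whose deviations from the group means correlated by 0.0176 to 0.0942, and the mouse as a block was an alternative, as were DESeq2 1.42.0, its size factors, no filter, other sets of libraries and leaving out each mouse. Standard errors were derived from the F statistic. All 6 members are named, as are the 3 genes nearest to each in profile (log2 of normalized counts plus 1, for members with at least 10 counts in 3 libraries) and up to 3 called genes of each list by size of change. Transcripts and promoters were aligned with Biopython 1.88. The members and lists were chosen with earlier results of these data known. Scripts were tested on simulated data.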

Additional observations from a re-analysis of the deposited data

How the results depend on the processing

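With 3 mice a group, single mice decided several calls. Leaving out each mouse in turn, 1 to 3 members were called with rIL-13 against PBS in microglia. Against macrophages, microglia had 1 member called with rIL-4 and 2 to 4 with rIL-13, and 0 to 1 were called in the cell type difference of the rIL-4 response. With edgeR and no filter on low counts, 1 member was called between rIL-4 and rIL-13 in macrophages. With DESeq2, 2 members were called there, and 1 in the cell type difference of the rIL-4 response. With the mouse as replicate block, which pairs both libraries of an animal, 1 member was called in that difference, and Retnla with rIL-13 and Chil1 with rIL-4 passed between cell types. The block changed no other call of a member, and the value of Chil1 in the cell type difference of the rIL-13 response was -0.30 with it. The cause of these changes was not tested.

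Leaving out each mouse in turn, some values that did not pass the test changed sign. Chil1 ranged from -1.07 to 0.48 with rIL-13 against PBS in macrophages, from -0.88 to 0.65 in microglia, from -1.003 to 0.57 between the cytokines in macrophages and from -0.45 to 0.32 in the cell type difference of the rIL-13 response. In that difference, Chil4 ranged from -0.41 to 1.86 and Retnlg from -0.12 to 4.90. Retnlg ranged from -1.10 to 2.20 with rIL-13 against PBS in macrophages and from -0.065 to 5.83 with rIL-4 against PBS in microglia, and Retnla from -0.36 to 2.68 between cell types with PBS. Of 544 recomputed values of members, 494 kept their direction and their side of the threshold. DESeq2 gave no adjusted p for Retnlg within macrophages. TMM library sizes moved no mean level of a member by more than its SD.

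Over all genes, the number called changed by more than 1.5 times under several settings. With rIL-4 against PBS in microglia it was 345, but 1215 with DESeq2, 949 with all 18 libraries and 75 to 269 without each mouse. With rIL-13 against PBS in microglia it was 57, but 322, 172 and 22 to 51, and 37 with only the 6 libraries compared. Between the cytokines in microglia it was 6, but 557, 138 and 0 to 15, and 0 with only those 6. In macrophages, it was 1900 with rIL-4, but 1053 with all 18 libraries and 1041 to 1614 without each mouse. It was 570 with rIL-13, but 1163 with DESeq2, 257 with all 18 libraries and 199 to 529 without each mouse. Between the cytokines in macrophages it was 34, but 420, 70 and 1 to 23, 209 with no filter and 7 with only those 6. Between cell types, it was 4240 with PBS, 4569 with rIL-4 and 4868 with rIL-13, but 2418 to 2573, 3118 to 3524 and 3153 to 3702 without each mouse. For the cell type differences, it was 164 for rIL-4 and 4 for rIL-13, but 689 and 154 with DESeq2, and 18 to 109 and 0 to 4 without each mouse.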
